A study of Mus musculus with 32 samples.

Results

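Macrophages and other leukocytes were followed in mouse ventricle RNA through 10 marker genes, Csf1r, Cd14, Fcgr3, Fcer1g, Tyrobp, Ptprc, Itgam, Cd68, Lyz2 and Ccl2, of 13660 genes that the arrays name. The members were every probe set annotated to only 1 of these genes. A probe set is a group of short oligonucleotides on the array that together give 1 signal. This rule found 16 probe sets among 24965, all of them on the first of the 2 Affymetrix array types used and none on the second. A further probe set that is annotated to both Lyz1 and Lyz2 fell outside the rule. Where a gene has several probe sets they are numbered here from the highest mean signal down.

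Total RNA of the cardiac ventricle came from wild type mice described as normal in cardiac phenotype, from hypertrophic hearts of mice whose AT1 transgene is cardiac specific, and from such transgenic mice in cardiac failure. Each array type holds 16 samples, of which 5 are wild type, 8 hypertrophy and 3 failure. The labels leave the name AT1 unexplained, which is common shorthand for a receptor of angiotensin II. The labels name neither the promoter that drives the transgene nor the age, sex or strain of the animals. Nor do they state whether each sample is a different animal, and the p-values therefore reflect only the spread among these samples, which may be technical. Both transgenic groups were compared with the same 5 wild type samples.

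Resident macrophages live between the muscle cells of the healthy heart, depend on signals through the Csf1 receptor, clear dead cells and debris, and take part in conduction and repair. After injury, monocytes that carry the receptor for Ccl2 enter from the blood and become further macrophages. The members cover this biology from several sides: surface receptors that sense growth factor and bacterial products, Fc receptors and the adaptor chains they share, the common leukocyte phosphatase CD45 and the integrin chain CD11b, proteins of the phagocyte's lysosome and granules, and a chemokine that draws monocytes in. In RNA of whole tissue, fewer cells of a type and less RNA per cell cannot be told apart.

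The signals are the deposited intensities, which are linear and have no unit. Probe sets entered the tests if they reached the median of its own array in at least 3 of the 16 arrays, as 9 of the 16 member probe sets did. These 9 stand for 8 genes, Csf1r with both of its probe sets and Cd14, Fcgr3, Fcer1g, Ptprc, Itgam, Cd68 and Lyz2 with 1 each. Tyrobp and Ccl2 had no tested probe set. For the tests, signals below 39.5, the 20th percentile of the first array type and called the floor here, were raised to it. Differences are on the log2 scale, with their standard error, from 1 limma model over the 16 arrays, and p-values were adjusted by the Benjamini-Hochberg method over all 6980 tested probe sets.

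The array medians of the first type ran from 91.8 to 121. Hypertrophy replicates 6 and 7 stood apart in the ratio of the 5' to the 3' signal of Gapdh. Replicate 6 read lowest for Csf1r, and both read highest for the first probe set of Ptprc. Some differences of the first probe sets of these genes are therefore also given without both arrays. The same ratio of Actb was 0.765 to 1.10 in failure, 0.545 to 0.752 in wild type and 0.357 to 0.992 in hypertrophy. It thus sets failure apart from wild type, while the hypertrophy arrays overlap both other groups. Failure differences are given with this ratio as a covariate where members had an unadjusted p under 0.05.

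No member differed between groups past the adjusted threshold of 0.05. Between hypertrophy and wild type 0 of 9 member probe sets were called, where the share over all tested probe sets was 0.0%. Between failure and wild type 0 of 9 were called, against 0.143% of all, and between failure and hypertrophy 0 of 9, against 0.0% of all. At an unadjusted p under 0.05 the counts were 0 of 9 members against 4.47% of all probe sets for hypertrophy against wild type, 2 of 9 against 10.7% for failure against wild type, and 2 of 9 against 10.1% for failure against hypertrophy. The members behind these counts were Cd14, on average above wild type in failure, Itgam, below both other groups in failure, and Ptprc, below hypertrophy in failure. The arrays of the groups compared did not overlap for 0 members against 0.172% of all probe sets, 0 members against 13.3%, and 1 member, Itgam, against 2.54%, in the same order of comparisons. Itgam reached the median of its array in 2 wild type, 2 hypertrophy and 0 failure arrays. It entered the tests only through the groups where it read higher, so its part in these counts is no support for a difference. The median difference of the 9 member probe sets was 0.05, 0.01 and -0.12, beside -0.01, 0.04 and 0.05 over all tested probe sets. Csf1r enters these medians with both of its probe sets. The median of -0.12 is the value of Csf1r probe set 2, which like Itgam reached the array median in 0 failure arrays. This median is therefore no support for a difference either.

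**Figure D1:**
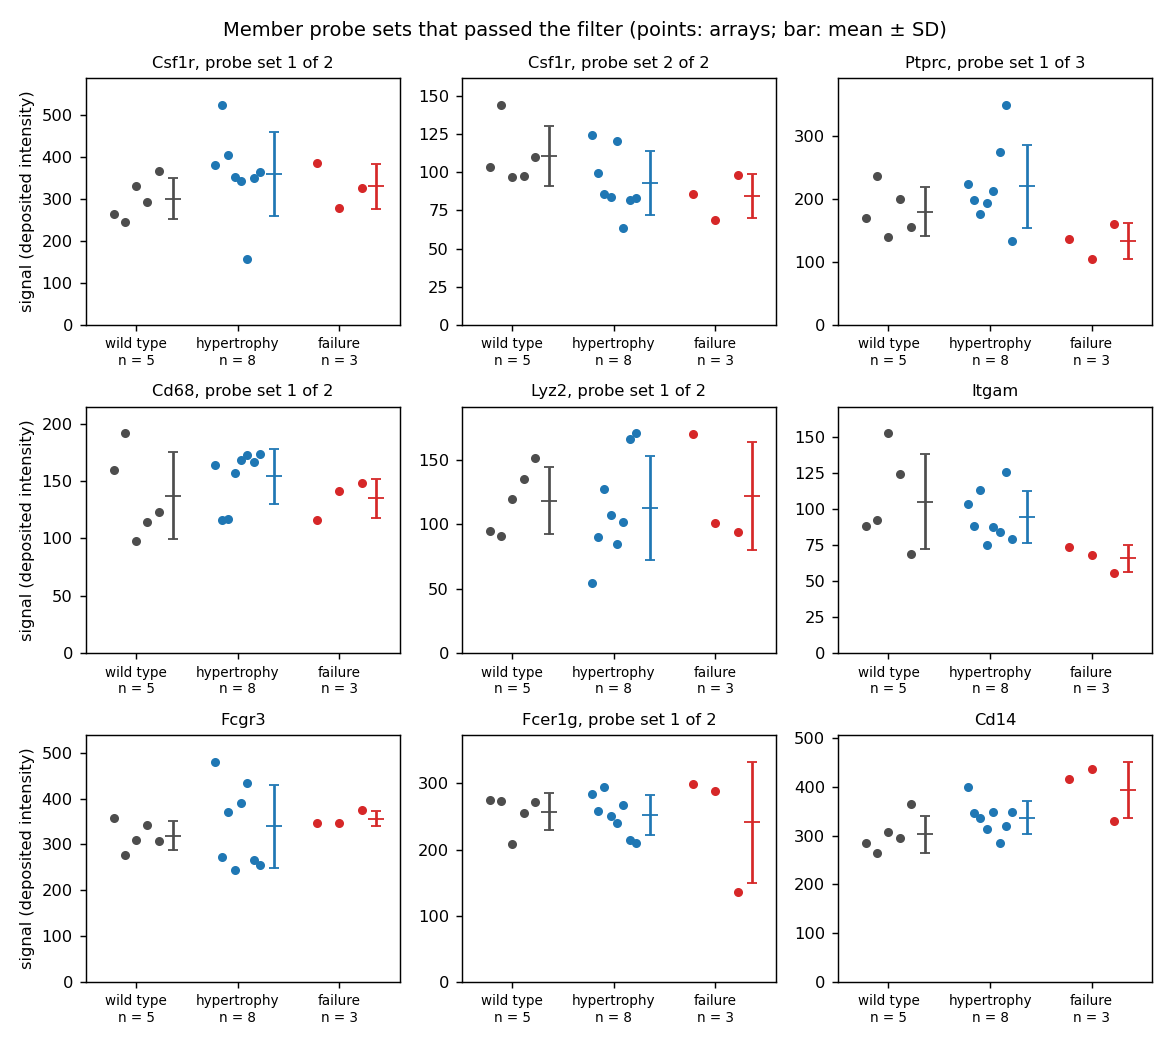
Signal (deposited intensity, linear axis from 0) of the 9 member probe sets that passed the filter, with 1 point per array and bars for mean ± SD in wild type (n = 5), hypertrophy (n = 8) and failure (n = 3). The groups overlap in all panels, except that the 3 failure arrays of Itgam lie below the 8 hypertrophy arrays.

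Csf1r encodes the receptor for the growth factors Csf1 and Il34, on which macrophages depend. The first of its probe sets (104354_at) read 263, 245, 330.4, 293 and 365 in wild type replicates 1 to 5, and 385, 278 and 324 in failure replicates 1 to 3. In hypertrophy it ranged from 156 to 523 around a median of 357. The hypertrophy arrays therefore enclosed all arrays of both other groups, with replicate 6 lowest and replicate 2 highest. Group means were 299 ± 48.9 (SD, n = 5), 359 ± 101 (SD, n = 8) and 329 ± 54.0 (SD, n = 3) in wild type, hypertrophy and failure. The log2 difference was 0.21 ± 0.21 (SE, adjusted p = 0.976) for hypertrophy against wild type, 0.14 ± 0.27 (adjusted p = 0.905) for failure against wild type and -0.07 ± 0.25 (adjusted p = 0.959) for failure against hypertrophy. Leaving out 1 array moved the first from 0.124 (without hypertrophy replicate 2) to 0.373 (without replicate 6) and the second from 0.0183 to 0.255 (without failure replicates 1 and 2). Without hypertrophy replicates 6 and 7 together, hypertrophy minus wild type was 0.40 (adjusted p = 0.909).

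The other Csf1r probe set (161832_r_at) read 103, 144, 96.8, 97.5 and 110.2 in wild type and 86.1, 69.1 and 97.9 in failure. Hypertrophy arrays ran from 63.4 to 125 with a median of 85.0. This probe set reached the array median in 2 wild type, 2 hypertrophy and 0 failure arrays, and so entered the tests only through the first 2 groups. Here wild type replicate 2 stood above every other array, and the lowest array was again hypertrophy replicate 6. The differences had the other sign than in the first probe set against wild type, at -0.26 ± 0.16 (SE, adjusted p = 0.960) in hypertrophy and -0.39 ± 0.20 (adjusted p = 0.518) in failure. Failure minus hypertrophy was -0.12 ± 0.18 (adjusted p = 0.871), of the same sign as in the first. Its ending _r_at marks, in Affymetrix's naming, a probe set for which some of the design rules were dropped. Against wild type the 2 probe sets of Csf1r thus give no common direction.

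Of the receptor's ligands, Csf1 had a signal of 298 ± 18.4 (SD, n = 5), 300.0 ± 32.7 (SD, n = 8) and 333 ± 25.2 (SD, n = 3) in wild type, hypertrophy and failure, with a log2 difference of 0.16 ± 0.12 (SE, adjusted p = 0.673) between failure and wild type. Il34, measured on the second array type, had 240.0 ± 12.4, 237 ± 10.9 and 239 ± 12.3 in the same groups. Of the 12 colony stimulating factors, related factors and receptors listed beside Csf1r, 10 were tested and 0 were called in any comparison. The growth factors Csf2 and Csf3 had failure differences against wild type of -0.09 ± 0.23 and 0.02 ± 0.10 (SE), and Csf3r, the receptor of Csf3, -0.08 ± 0.09. In wild type Csf2 and Csf3 gave 509 ± 70.6 and 422 ± 28.1 (SD, n = 5), above Csf1. Whether these signals come from the named genes was not tested. On the second array type, which holds some of the listed genes, the shares of all probe sets called were 0.171%, 0.357% and 0.0286% for hypertrophy against wild type, failure against wild type and failure against hypertrophy.

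Cd14, the co-receptor that hands bacterial lipopolysaccharide to Tlr4, read 285, 264, 306, 294 and 365 in wild type and 416, 437 and 329 in failure. The hypertrophy arrays ran from 285 to 399 with a median of 341. Failure replicates 1 and 2 lay above all 13 arrays of the other groups, and failure replicate 3 lay within both of them. Group means were 303 ± 37.9 (SD, n = 5), 337 ± 33.3 (SD, n = 8) and 394 ± 57.3 (SD, n = 3) in wild type, hypertrophy and failure. The difference between failure and wild type was 0.38 ± 0.13 (SE), with a 95% interval from 0.102 to 0.653, an unadjusted limma p of 0.0101 and an adjusted p of 0.284. Hypertrophy against wild type gave 0.16 ± 0.10 (adjusted p = 0.960) and failure against hypertrophy 0.22 ± 0.12 (adjusted p = 0.557). With array weights, which let noisier arrays count less, the failure difference was 0.45 with an adjusted p of 0.00459, in a fit that called 1002 of the 6980 probe sets where the fit without weights called 10. With the Actb ratio as a covariate it was 0.25 (adjusted p = 0.388).

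Of 30 genes of the Toll-like receptor and Cd14 pathway, 17 were tested and 0 were called. Their median difference was 0.08 for hypertrophy against wild type, 0.16 for failure against wild type and 0.07 for failure against hypertrophy. Between failure and wild type 14 of the 17 differences were above 0 and 3 below, while 41.5% of all tested probe sets of the first array type were below 0. Only 12 of the 17 genes were tested on that type, and the share for the second type is not given. The 3 genes of highest signal in this list were Tlr7, a receptor for single-stranded RNA, Rela, a subunit of NF-kappaB, and the cytokine Il18. Their failure differences against wild type were 0.01 ± 0.19, -0.01 ± 0.10 and -0.12 ± 0.14 (SE), with adjusted p-values of 0.988, 0.988 and 0.832.

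Fcgr3, a low affinity receptor for IgG on macrophages and natural killer cells, read 358, 277, 310.4, 343 and 308 in wild type. The 3 failure arrays read 348, 347 and 375 and lay close together. In hypertrophy the range was 245 to 480.5 with a median of 321, wider than in both other groups and enclosing them. Means were 319 ± 31.9 (SD, n = 5), 339 ± 91.3 (SD, n = 8) and 356 ± 16 (SD, n = 3). The differences were 0.05 ± 0.16, 0.16 ± 0.20 and 0.12 ± 0.19 (SE) for hypertrophy against wild type, failure against wild type and failure against hypertrophy, with adjusted p-values of 0.992, 0.838 and 0.883.

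Fcer1g encodes the gamma chain through which Fcgr3 and the IgE receptor signal. Its first probe set (162181_f_at) read 275, 274, 208, 256 and 271 in wild type and from 210 to 294 in hypertrophy, with a median of 254. The failure arrays read 299.6, 288 and 136. Failure replicate 3 was the lowest of all 16 arrays, while failure replicate 1 was the highest. The difference between failure and wild type was -0.17 ± 0.21 (SE, adjusted p = 0.833) with all arrays, and 0.20 without failure replicate 3. In that array the Y-linked Eif2s3y exceeded the X-inactivation RNA Xist, at 43.7 against 14.3, and in the other failure arrays it did not. Eif2s3y also exceeded Xist in hypertrophy replicates 5 to 8 and wild type replicates 3 to 5, where this probe set read 208 to 271. The ending _f_at marks a probe set designed against a family of related sequences, so its signal may hold more than Fcer1g. The other Fcer1g probe set (160692_at) was not tested; it lay between 30.2 and 67.9, below the floor in 5 of 16 arrays, with means of 45.2 ± 7.15, 46.8 ± 13.2 and 43.1 ± 5.06 (SD) in wild type, hypertrophy and failure.

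Tyrobp, or DAP12, is the second adaptor of this kind and couples Trem2 and other receptors of macrophages and natural killer cells to Syk. Its probe set (100397_at) reached the array median in 0 of 16 arrays. Wild type arrays read 74.4, 54.8, 68.4, 60.4 and 69.3, failure arrays 64.9, 66.0 and 38.8, and hypertrophy arrays 39.8 to 82.5 with a median of 67.8. The failure array that stood low was again replicate 3, and it was the only array of this probe set below the floor. Fitted without the filter, the differences of Tyrobp were -0.05 ± 0.20, -0.23 ± 0.25 and -0.19 ± 0.23 (SE) for hypertrophy against wild type, failure against wild type and failure against hypertrophy.

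Among 22 further Fc receptor and ITAM signalling genes, 7 were tested and 0 were called, with median differences of 0.00, -0.09 and -0.02 in the 3 comparisons. Without failure replicate 3 the median against wild type was 0.185, and without wild type replicate 2 it was 0.0412, both of the other sign. The kinase Syk, which binds the phosphorylated tails of Fcer1g and Tyrobp, had means of 240.0 ± 19.0 (SD, n = 5), 274 ± 29.3 (SD, n = 8) and 285 ± 17.3 (SD, n = 3), and a failure difference against wild type of 0.25 ± 0.12 (SE, adjusted p = 0.460). Inpp5d, the phosphatase SHIP1 that opposes this signalling, had 813 ± 58.2, 730.0 ± 63.1 and 608 ± 78.0 in the same groups, and a failure difference of -0.42 ± 0.12 (SE, adjusted p = 0.161). The neonatal Fc receptor Fcgrt, which endothelial cells also make, had a failure difference of 0.13 ± 0.14 (adjusted p = 0.796). Cd300a, an inhibitory receptor measured on the second array type, had -0.12 ± 0.10 (adjusted p = 0.665).

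**Figure D2:**
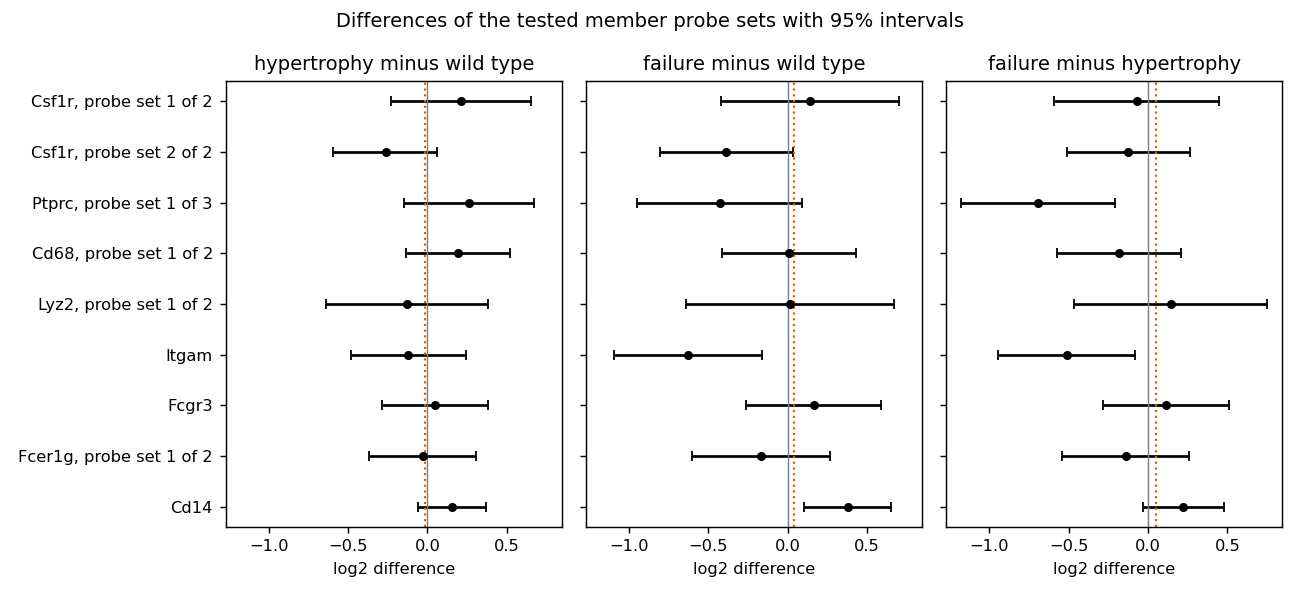
Log2 differences of the 9 tested member probe sets with 95% intervals from the limma fit, in 3 panels for hypertrophy minus wild type, failure minus wild type and failure minus hypertrophy; the grey line is 0 and the dotted line the median of all 6980 tested probe sets. The intervals leave out 0 for Cd14 and Itgam in failure against wild type and for Ptprc and Itgam in failure against hypertrophy, and 0 of the 27 differences passed the adjusted threshold.

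Ptprc encodes CD45, the receptor phosphatase on the surface of all nucleated blood cells. Its first probe set (101298_g_at) read 169.5, 236, 139.9, 199 and 155 in wild type and 136, 104 and 159.9 in failure. In hypertrophy the signal ran from 132 to 349 with a median of 205, highest in replicates 7 and 6 and lowest in replicate 8. Replicate 8 was the hypertrophy array that lay within the failure range; the other 7 lay above it. Means were 180.0 ± 38.3 (SD, n = 5), 220.0 ± 65.8 (SD, n = 8) and 133 ± 28.1 (SD, n = 3) in wild type, hypertrophy and failure. Failure minus hypertrophy was -0.69 ± 0.23 (SE), with a 95% interval from -1.18 to -0.207, an unadjusted limma p of 0.00781 and an adjusted p of 0.317. Failure minus wild type was -0.43 ± 0.25 (adjusted p = 0.583) and hypertrophy minus wild type 0.26 ± 0.19 (adjusted p = 0.960).

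The 2 highest hypertrophy arrays of Ptprc are those whose Gapdh signal at the 5' end was low relative to the 3' end, 0.468 and 0.0487 against 0.806 to 0.955 in wild type, a measure that is low in degraded RNA. Without both of them hypertrophy minus wild type was 0.08 (adjusted p = 0.983) and failure minus hypertrophy was -0.51 (adjusted p = 0.472). With the Actb ratio as a covariate failure minus hypertrophy was -0.44 (adjusted p = 0.456) and failure minus wild type -0.12 (adjusted p = 0.850). The other Ptprc probe sets were dim. Probe set 2 (101048_at) had means of 38.3 ± 10.1, 38.0 ± 10.5 and 45.5 ± 4.17 (SD) in wild type, hypertrophy and failure, and 9 of its 16 arrays were below the floor. In it the failure mean was the highest of the 3 groups, where in the first probe set it was the lowest. Probe set 3 (101297_at) was below the floor in all 16 arrays, from 7.63 to 19.9. Whether the much higher signal of the first probe set comes from Ptprc alone was not tested.

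Of 20 pan-leukocyte genes listed beside Ptprc, 16 were tested and 0 were called. Their median difference was 0.10 for hypertrophy against wild type, 0.09 for failure against wild type and -0.04 for failure against hypertrophy. Laptm5, a lysosomal membrane protein of blood cells, had means of 316 ± 23.5 (SD, n = 5), 356 ± 38.6 (SD, n = 8) and 418 ± 52.3 (SD, n = 3) in wild type, hypertrophy and failure. Its failure difference against wild type was 0.40 ± 0.13 (SE, adjusted p = 0.247). Rac2, a GTPase of blood cells, had 362 ± 29.8, 338 ± 35.3 and 346 ± 23.1 in the same groups.

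Itgam encodes CD11b, the alpha chain of the integrin Mac-1 on macrophages, monocytes and neutrophils. Wild type arrays read 88.5, 92.3, 153, 124 and 68.9. Failure arrays read 73.9, 68.0 and 55.8. Hypertrophy arrays ran from 74.9 to 126 with a median of 87.8, so that all 3 failure arrays lay below all 8 hypertrophy arrays. They overlapped with wild type through replicate 5 of that group. The probe set reached the array median in 2 wild type, 2 hypertrophy and 0 failure arrays, so it passed the filter only through the groups where it read higher. A filter that asked for 8 arrays left it out. Means were 105 ± 33.1 (SD, n = 5), 94.6 ± 17.8 (SD, n = 8) and 65.9 ± 9.25 (SD, n = 3). Failure minus wild type was -0.63 ± 0.22 (SE), with a 95% interval from -1.10 to -0.165, an unadjusted limma p of 0.0109 and an adjusted p of 0.295. Failure minus hypertrophy was -0.51 ± 0.21 (SE), with an interval from -0.942 to -0.079, an unadjusted p of 0.0232 and an adjusted p of 0.406. Hypertrophy minus wild type was -0.12 ± 0.17 (adjusted p = 0.981). With the Actb ratio as a covariate failure minus wild type was -0.54 (adjusted p = 0.315) and failure minus hypertrophy -0.44 (adjusted p = 0.460).

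The beta chain that pairs with Itgam is Itgb2, or CD18, which leukocytes need to bring any integrin of this family to their surface. It had means of 109 ± 14.1 (SD, n = 5), 108 ± 6.83 (SD, n = 8) and 131 ± 15 (SD, n = 3) in wild type, hypertrophy and failure. Its failure difference against wild type was 0.27 ± 0.12 (SE, adjusted p = 0.416), of the other sign than that of Itgam, and neither passed the threshold. Of 16 leukocyte integrins and their ligands 10 were tested and 0 were called, with median differences of 0.01, 0.09 and 0.12 in the 3 comparisons. Itgal, the alpha chain of LFA-1, had 286 ± 18.3, 275 ± 33.4 and 285 ± 4.43 (SD) in wild type, hypertrophy and failure. Itgb7 and Itgae, the chains of a lymphocyte integrin, had failure differences against wild type of 0.05 ± 0.13 and 0.01 ± 0.14 (SE).

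Cd68 is a heavily glycosylated protein of the macrophage's late endosomes and lysosomes and a common stain for macrophages in sections. Its first probe set (103016_s_at) read 159.8, 192, 98.0, 114 and 123 in wild type and 116, 141 and 148 in failure. The hypertrophy arrays ran from 116 to 173 with a median of 165. Hypertrophy replicates 2 and 3 read 116 and 117, and the other 6 read 157 to 173. Wild type held both the lowest and the highest array of all 16. Means were 137 ± 37.8 (SD, n = 5), 154 ± 23.8 (SD, n = 8) and 135 ± 17.1 (SD, n = 3), and the differences were 0.19 ± 0.16 (SE, adjusted p = 0.964), 0.01 ± 0.20 (adjusted p = 0.992) and -0.18 ± 0.19 (adjusted p = 0.802) for hypertrophy against wild type, failure against wild type and failure against hypertrophy. The ending _s_at marks a probe set that may match further transcripts. The other Cd68 probe set (162173_i_at) was below the floor in 15 of 16 arrays.

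Of 27 lysosomal genes listed beside Cd68, 21 were tested and 0 were called. Between failure and wild type 16 of the 21 differences were above 0, with a median of 0.13, and between failure and hypertrophy 18 of 21, with a median of 0.14. Of all tested probe sets of the first array type, which holds 20 of the 21 genes, 41.5% and 39.1% were below 0 in these comparisons. Many lysosomal genes are expressed by all cells of the ventricle, heart muscle included. Some on this list are not of that kind: Laptm5 is also on the pan-leukocyte list and Ctss on the macrophage list. The protease Ctsd had means of 2780 ± 286 (SD, n = 5), 2540 ± 411 (SD, n = 8) and 3420 ± 313 (SD, n = 3), with a failure difference against wild type of 0.30 ± 0.15 (SE, adjusted p = 0.496). Lamp1 and Psap, the main membrane protein of lysosomes and the precursor of the saposins, had failure differences of 0.00 ± 0.22 and 0.01 ± 0.14 (SE). Of 8 genes of the phagocyte NADPH oxidase 5 were tested and 0 were called, with a median of -0.01 between failure and wild type. Cyba, the p22phox subunit, had -0.01 ± 0.15 and the GTPase Rac1 0.22 ± 0.18 (SE).

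Lyz2 encodes lysozyme M, the bacterial cell wall hydrolase of macrophages and neutrophils. The first of its probe sets (100611_at) read 95.1, 90.8, 119, 135 and 151 in wild type and 170.2, 101 and 94.0 in failure. In hypertrophy the range was 54.1 to 170.5 with a median of 104, lowest in replicate 1 and highest in replicates 8 and 7. The groups overlapped almost completely, with means of 118 ± 25.9 (SD, n = 5), 113 ± 40.1 (SD, n = 8) and 122 ± 42.1 (SD, n = 3). The differences were -0.13 ± 0.24, 0.02 ± 0.31 and 0.14 ± 0.29 (SE) for hypertrophy against wild type, failure against wild type and failure against hypertrophy, with adjusted p-values of 0.985, 0.991 and 0.914. Each of these differences took the other sign when 1 array was left out. Mice carry a near-identical gene, Lyz1, and its transcripts may add to this signal.

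The other Lyz2 probe set (162309_at) was below the floor in 10 of 16 arrays, from 14.4 to 64.4, and was not tested. Before any floor, its log2 signal followed that of the first probe set over the 16 arrays (Pearson's r = 0.903, permutation p = 1e-05, the smallest that 100000 permutations can give, adjusted p = 7e-05 over 7 pairs; Spearman's rank correlation = 0.859, adjusted permutation p = 0.00028). Without the 2 arrays farthest from the median r was 0.814, without hypertrophy replicates 6 and 7 it was 0.892, and within the 8 hypertrophy arrays alone it was 0.933. Both probe sets were lowest in hypertrophy replicate 1, the array with the lowest median signal of the type, 91.8 where the others had 102 to 121, and high in hypertrophy replicates 7 and 8 and failure replicate 1.

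**Figure D3:**
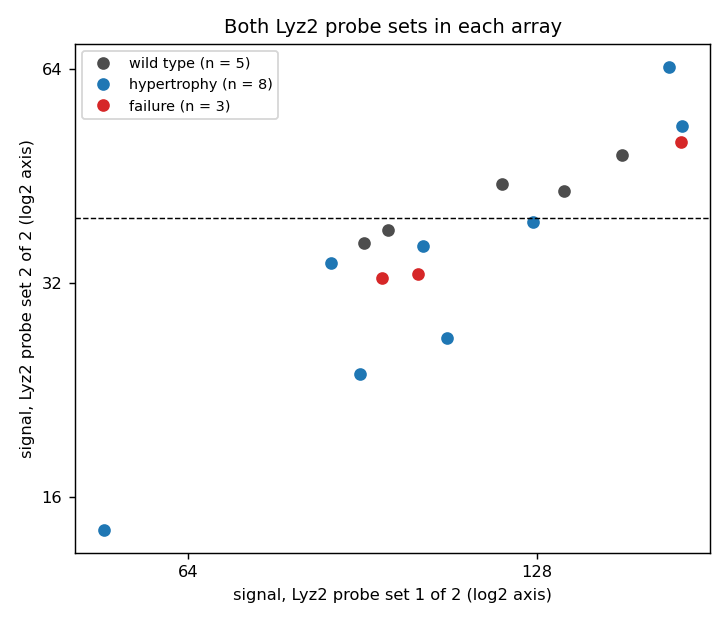
Signal (deposited intensity) of the 2 probe sets of Lyz2 in each of the 16 arrays on log2 axes, coloured by group, with the floor of 39.5 as a dashed line. The 2 probe sets run together over the arrays (r = 0.903), and the 3 groups lie along the same line, with hypertrophy arrays at both ends.

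Ccl2, or MCP-1, is the chemokine that draws monocytes into injured tissue. Its probe set (102736_at) was below the floor in 15 of the 16 arrays. Wild type arrays read 21.8, 15.2, 14.8, 23.9 and 20.6, failure arrays 7.53, 16.4 and 13.4, and hypertrophy arrays 5.34 to 40.7 with a median of 21.7. The array that passed the floor was hypertrophy replicate 7, and the lowest was hypertrophy replicate 1. Signals this low have only a bound in the tests, so no difference is given for Ccl2. The files hold no detection call, and a transcript below the floor may still be present.

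Of 40 other chemokines and chemokine receptors 34 had a probe set, 17 were tested and 0 were called, with median differences of -0.03, 0.01 and -0.01 in the 3 comparisons. Cxcl16, a membrane-bound chemokine and scavenger receptor measured on the second array type, had means of 682 ± 63.4 (SD, n = 5), 877 ± 265 (SD, n = 8) and 1050.0 ± 274 (SD, n = 3), with a failure difference against wild type of 0.60 ± 0.23 (SE, adjusted p = 0.296). Ccl25 had 437 ± 64.2, 614 ± 267 and 454 ± 111 in the same groups. Ccl4, a chemokine of activated macrophages, had a failure difference of 0.11 ± 0.13 (SE, adjusted p = 0.821).

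**Figure D4:**
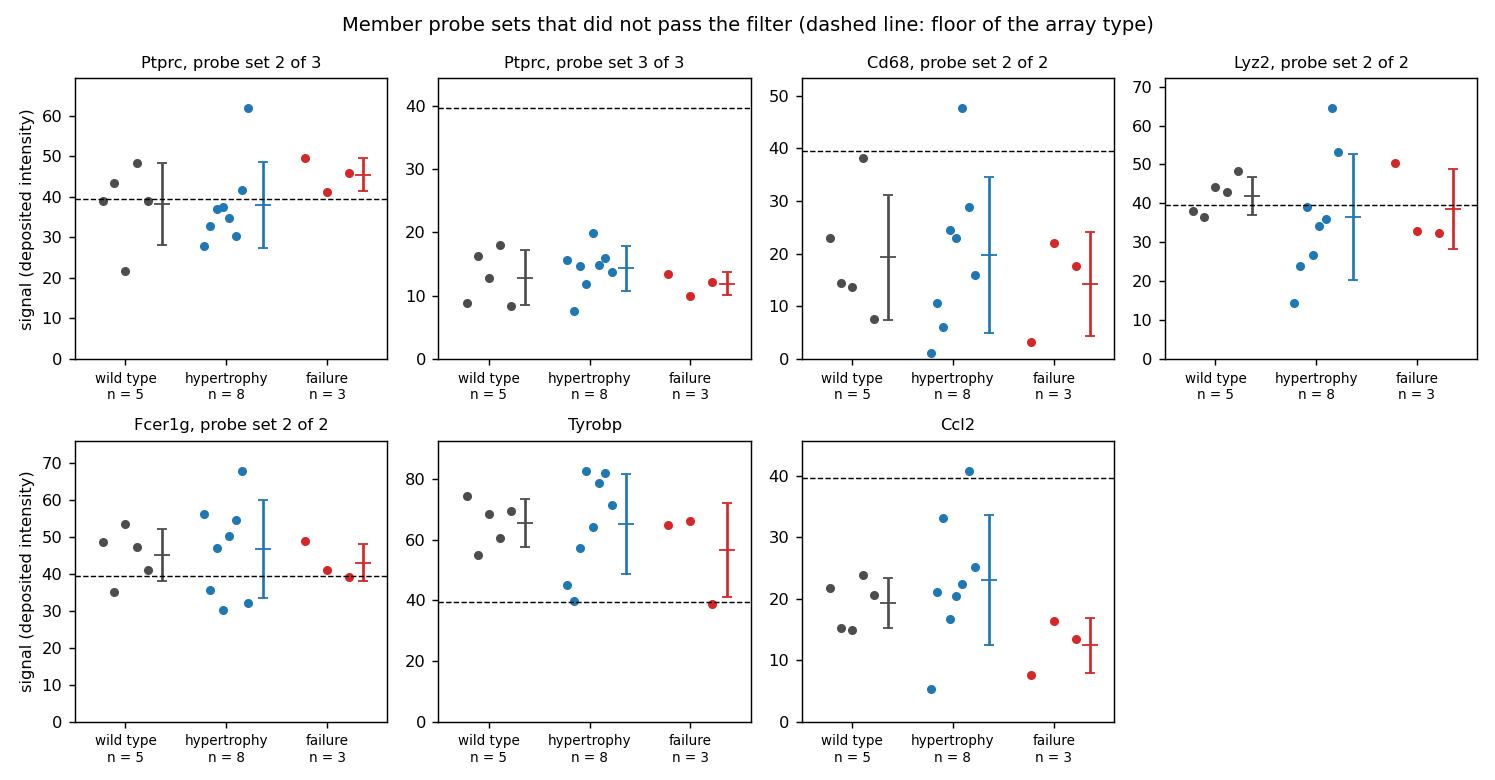
Signal (deposited intensity, linear axis from 0) of the 7 member probe sets that did not pass the filter, with 1 point per array and bars for mean ± SD in wild type (n = 5), hypertrophy (n = 8) and failure (n = 3); the dashed line is the floor of 39.5. Ptprc probe set 3 lies below the floor in all 16 arrays, Ccl2 and Cd68 probe set 2 in 15 of 16, and Tyrobp above it in all but failure replicate 3.

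No shared variation of the members over the arrays was detectable in pairs of genes. For the 10 genes, each by its first probe set, 45 pairs were correlated over the 16 arrays. The r of these pairs had a median of 0.0136 and ran from -0.522 (Fcgr3 with Lyz2) to 0.522 (Lyz2 with Tyrobp), 23 of 45 were above 0, and 0 passed the adjusted threshold in permutation tests, with 3 at an unadjusted p under 0.05. Ccl2, mostly below the floor, is part of 9 of these pairs, and the other 36 had a median r of 0.00648, with 18 above 0. Of 7 pairs of probe sets of the same gene only the Lyz2 pair passed it. The pair of Csf1r had r = 0.272, that of Cd68 0.229 and that of Fcer1g 0.0928, and the 3 pairs of Ptprc had 0.449, 0.0716 and -0.196. The second probe sets of Cd68, Fcer1g and Ptprc are mostly near or below the floor, and the part of this in their low r was not tested.

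The mean of the 8 tested genes, each centred over the 16 arrays on the log2 scale, was highest in hypertrophy replicate 7 at 0.218 and lowest in failure replicate 3 at -0.221. Hypertrophy replicate 7 is the array with the lowest Gapdh ratio of the type. Over the 16 arrays the probe sets most like this mean were those of Efna2 (r = 0.844), P2rx6 (0.827), Agxt (0.786), S1pr3 (0.769) and Ccdc71l (0.767) among 6167 on the first array type. On the second they were Glb1l2 (0.820), Mex3a (0.773), Tceanc2 (0.771), Zfp790 (0.748) and Dlk1 (0.741) among 6036. For these the arrays of both types were matched by group and replicate number. That arrays of the same group and number hold the same RNA was assumed and not tested. After subtracting group means the r of these 10 genes lay between 0.671 and 0.837, and without hypertrophy replicates 6 and 7 between 0.628 and 0.812. They were picked as the highest of many, and none of them is on any of the macrophage or leukocyte lists used here.

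Of 27 further macrophage identity genes 24 had a probe set, 16 were tested and 0 were called. Their median difference was -0.04 for hypertrophy against wild type, 0.10 for failure against wild type and 0.20 for failure against hypertrophy. Lgals3, a galectin of activated macrophages and fibroblasts, had means of 470.0 ± 26.8 (SD, n = 5), 431 ± 57.2 (SD, n = 8) and 574 ± 47.0 (SD, n = 3), with 0.42 ± 0.12 (SE, adjusted p = 0.211) for failure against hypertrophy. Apoe, a lipid carrier of macrophages and other cells, had 924 ± 207, 990.0 ± 498 and 1170.0 ± 490.0, with 0.28 ± 0.37 (adjusted p = 0.851) for failure against wild type. C1qc, a complement chain that macrophages make, had 336 ± 71.3, 338 ± 70.8 and 459 ± 106, with 0.45 ± 0.20 (adjusted p = 0.448) for failure against wild type. Adgre1, the F4/80 antigen, had 172 ± 10.9, 178 ± 32.6 and 193 ± 12.7, and Aif1, or Iba1, had 317 ± 33.6, 322 ± 37.3 and 271 ± 16.9. The failure difference against wild type was thus above 0 for Adgre1, at 0.16 ± 0.17 (adjusted p = 0.789), and below 0 for Aif1, at -0.22 ± 0.13 (adjusted p = 0.576).

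Markers of other leukocytes gave 0 calls as well. The median difference between failure and wild type was -0.13 for 13 tested neutrophil markers, 0.04 for 9 T cell markers, 0.06 for 11 B cell markers, 0.14 for 4 natural killer cell markers, -0.15 for 5 mast cell markers and 0.09 for 11 dendritic cell and class II genes. Neutrophils carry Itgam too, and the neutrophil granule genes Ngp and Mmp9 had failure differences of -0.08 ± 0.19 and -0.17 ± 0.16 (SE). Ms4a1, the B cell antigen CD20, had means of 606 ± 45.6 (SD, n = 5), 721 ± 179 (SD, n = 8) and 437 ± 45.8 (SD, n = 3), an order of groups like that of Ptprc, with -0.69 ± 0.19 (SE, adjusted p = 0.211) for failure against hypertrophy. The B cell list did not follow it: in that comparison 6 of its 11 tested markers were above 0 and 5 below, with a median of 0.03. Pax5 and Zap70, listed here as B and T cell markers, gave signals of 805 ± 58.9 and 1730.0 ± 268 (SD, n = 5) in wild type ventricle. Whether such signals come from the named gene was not tested.

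The 12 cardiomyocyte markers tested on the first array type summed to between 60300 and 68900 in wild type, 56200 and 72000 in hypertrophy and 65000 and 66500 in failure. Myh6 and Myl2, the main myosin chains of adult ventricle, gave 8450.0 ± 128 and 8500.0 ± 261 (SD, n = 5) in wild type. The median failure difference against wild type was 0.68 for 12 tested fibroblast markers, 0.09 for 9 endothelial markers, 0.13 for 11 smooth muscle and pericyte markers and 0.25 for 7 atrial markers, with 0 calls in each. With the Actb ratio as a covariate the endothelial median was 0.429 and that of smooth muscle and pericytes 0.326. Of the 219 tested genes of all 21 lists, which hold 354 genes, 0 were called in any comparison. The 4 tested blood and erythroid genes, which tell of blood left in the tissue, had medians of -0.53, 0.28 and 0.88 in the 3 comparisons, and their summed signal ran from 3130.0 to 10700.0 in hypertrophy and from 5700.0 to 14200.0 in failure. Without failure replicate 3 their median between failure and hypertrophy was 0.48. Leukocytes in that blood carry the member genes too, and the part of remaining blood in the members' levels was not tested.

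**Figure D5:**
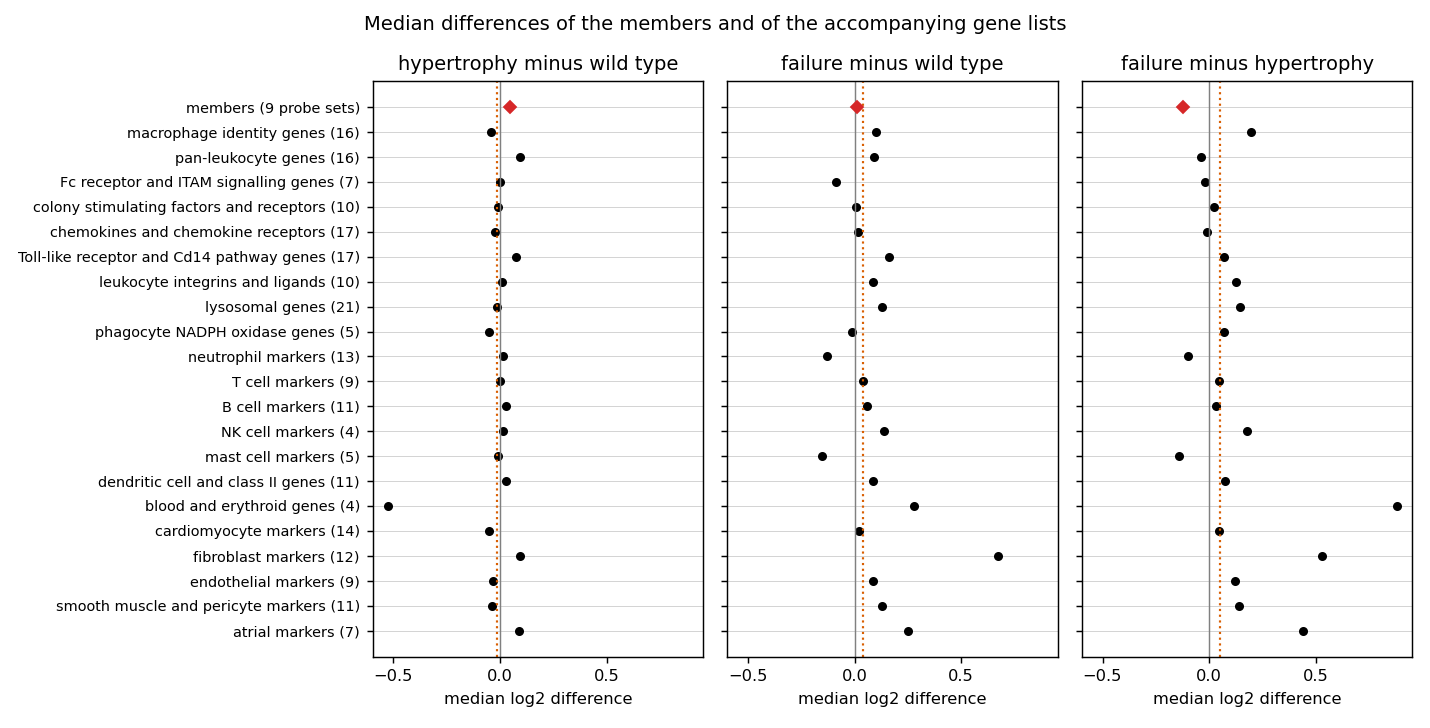
Median log2 difference of the 9 member probe sets (red diamonds) and of the 21 accompanying gene lists (black points, with the number of genes tested) in hypertrophy minus wild type, failure minus wild type and failure minus hypertrophy; the grey line is 0 and the dotted line the median of all tested probe sets of the first array type. The members lie at 0.05, 0.01 and -0.12, the fibroblast markers at 0.68 and the blood genes at 0.88 in the panels where they are highest. The members include Itgam and Csf1r probe set 2, which passed the filter with 0 failure arrays at the array median.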

How the data were processed

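Total RNA of mouse ventricle was hybridised to 2 Affymetrix array types, 16 arrays each. The authors deposited 1 linear intensity per probe set; the scaling and summary behind it are not given in the sources used. The values were used as deposited, raised to the 20th percentile of the array type (39.5 and 27.5), and put on the log2 scale. Tested were probe sets, other than controls, that reached the median of the array they were read on in 3 arrays or more (6980 of 12488 and 7004 of 12477). limma 3.58.1 in R 4.3.3 (lmFit, eBayes) fitted 1 model per array type over the 3 groups, with Benjamini-Hochberg adjustment per comparison. The fit was run on simulated data with independent noise and planted changes of 1 or 2 on the log2 scale. These are larger than any member difference, so the simulation does not speak for changes of that size. Precision is limited by the number of arrays, with median standard errors of 0.13, 0.17 and 0.15 (log2) in the 3 comparisons. Correlations used two-sided permutation tests in scipy 1.17.1, with 100000 permutations, and figures matplotlib 3.10.9.

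Names came from the platform annotation, with symbols updated to GRCm38.p6. A single gene was annotated to 10833 probe sets of the first array type, several to 396 and none to 1193; for the second the numbers were 10581, 178 and 1652. Genes named beside the members were taken from the 3 of highest mean signal in each of 21 lists, any that passed the test, and the 5 per array type most correlated with the members' mean. Of the pan-leukocyte list 1 such gene is not reported here; for leukocytes other than macrophages and for other cell types only some of the 3 are printed. Correlations without Ccl2 and likeness without hypertrophy replicates 6 and 7 were chosen after seeing the data. Csf1, Il34, Syk, Itgb2, Adgre1 and Aif1 were added after their values were seen, as known partners of members or common macrophage antigens. The members and lists were chosen with earlier results of these data known. Same-numbered samples did not pair: the correlation of their deviations from group means was over 0.1 in 3 of 11 pairs on the first array type and 2 of 11 on the second. Alternatives were other scalings, floors and filters, variance trend, weights per array, fits of just the pair of groups compared, a replicate block, fits without hypertrophy replicates 6 and 7, Actb ratio or Xist as covariates, joint adjustment and leaving out each array. Where a gene is represented by 1 probe set, it is that of highest mean.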

Additional observations from a re-analysis of the deposited data

Results flagged for a closer look

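Of 32 groups of 4 or more arrays, 2 held an array far from the others; chance alone gives about 1 in 20. Ptprc probe set 2 read 61.8 in hypertrophy replicate 8, where the nearest hypertrophy array read 41.8, and this gap was 0.589 of the group's range. In the first Ptprc probe set the same array was the lowest of its group, at 132. Csf1r probe set 2 read 144 in wild type replicate 2, where the nearest wild type array read 110.2, a gap of 0.718 of the range. In the first Csf1r probe set that array was the lowest of wild type, at 245. What set these arrays apart was not tested.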

How the results depend on the processing

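The 27 member differences were recomputed in 801 fits of 1 difference each; 765 kept direction and side of the threshold, 31 turned the sign and 5 passed the threshold. All 5 came with array weights, which called 4 of 9 members for failure against wild type (Cd14 0.45, Itgam -0.66, Ptprc -0.55 and Csf1r probe set 2 -0.46, with adjusted p of 0.00459, 0.027, 0.0416 and 0.0394) and 1 of 9 for failure against hypertrophy (Ptprc -0.77, 0.0238), out of 1002 and 274 calls in all. Of the members called, Itgam and Csf1r probe set 2 had passed the filter with 0 failure arrays at the array median. The 31 turned signs fell on 12 differences. The other 15 kept theirs throughout, those of Cd14 and Ptprc among them. The cause of these turns was not tested. Failure against wild type turned to -0.0731, -0.0777 and -0.0994 for Lyz2 with quantile scaling, median scaling and array weights, to -0.0794 and -0.084 for Cd68 with the first 2, and to -0.18 for Csf1r probe set 1 with the Actb covariate. Array weights turned Fcer1g to 0.0779 against wild type and 0.0936 against hypertrophy in failure, and Fcgr3 to -0.00588 in hypertrophy.

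With 1 array left out, Lyz2 ran from -0.225 to 0.0115 for hypertrophy against wild type (the latter without hypertrophy replicate 1), -0.25 to 0.18 for failure against wild type and -0.12 to 0.30 for failure against hypertrophy (lowest without failure replicate 1, highest without replicate 3). Cd68 ran from -0.10 to 0.14 for failure against wild type (without wild type replicates 3 and 2). Against hypertrophy, failure ran from -0.235 to 0.0437 for Csf1r probe set 1 and -0.238 to 0.014 for probe set 2, both highest without failure replicate 2. Fcer1g ran from -0.103 to 0.00776 for hypertrophy against wild type, -0.37 to 0.20 for failure against wild type and -0.34 to 0.23 for failure against hypertrophy, the last 2 highest without failure replicate 3. For hypertrophy against wild type Fcgr3 ran from -0.0305 to 0.109 and Itgam from -0.259 to 0.028, highest without wild type replicate 3. For failure against wild type Cd14 ran from 0.30 to 0.50, Itgam from -0.77 to -0.48 and Ptprc from -0.57 to -0.26.

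Calls over all probe sets of the first array type for failure against wild type, 10 as reported, were 30 with quantile scaling, 33 with median scaling, 22 without the filter, 1002 with array weights, 122 with only the groups compared, 34 without hypertrophy replicates 6 and 7, 42 with the Actb covariate, 17 with joint adjustment and 0 to 51 with 1 array left out. For hypertrophy against wild type (0) they were 1 without the filter and 0 to 1 with 1 array left out; for failure against hypertrophy (0) they were 10 without the filter, 274 with array weights and 0 to 24. On the second type, hypertrophy against wild type (12) gave 22 with array weights, 7 without replicates 6 and 7, 7 with joint adjustment and 5 to 25; failure against wild type (25) gave 40 with median scaling, 55 without the filter, 428 with array weights, 193 with only the groups compared, 70 without replicates 6 and 7, 81 with the Actb covariate and 4 to 79; failure against hypertrophy (2) gave 12 without the filter, 30 with array weights, 0 to 13 with 1 array left out, and 0 with only the groups compared, without replicates 6 and 7, with the Actb covariate and with joint adjustment.

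With the replicate number as a block (the replicate block of a paired design, which the correlations do not bear out), calls were 3 on the first array type for failure against wild type and 3, 6 and 0 on the second for hypertrophy against wild type, failure against wild type and failure against hypertrophy; 0 of 9 members were called and Fcer1g turned to 0.0497 for hypertrophy against wild type. The Xist covariate could not be fitted on the second type, which has no Eif2s3y probe set. Of 1197 list medians 8 moved by more than the median standard error of the single genes in the list. That bound is not the spread of a list median, so this count does not measure how stable the medians are. The count of list calls moved in 7 fits, all for cardiomyocyte or fibroblast markers.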
